A study of Homo sapiens with 5 samples.

Results

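The genes described here are those bright enough on the arrays to be read well away from their lower end when MHCC97H cells carrying ACOT12 were compared with cells carrying an empty vector. MHCC97H is an established human hepatocellular carcinoma line. Members were chosen on the intensities of the 2 ACOT12 and 2 empty vector arrays: a probe was kept if it had 1 gene symbol and read at least 800 on all 4, the log2 values of kept probes were quantile normalised, and a gene entered if all its kept probes differed between the groups in the same direction. Of 25893 probes with 1 symbol, 12351 were kept, which covered 10010 of 19090 genes, and 9123 of these had agreeing probes. In 7892 of the 10010 genes 1 probe was kept, which has no other to disagree with. Only 1232 of the 9123 members had 2 or more kept probes. Since the direction of the difference chose the members, their differences are given as a description, and tests were adjusted over all 10010 bright genes.

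The series holds 5 one-colour arrays of MHCC97H in 3 groups, all stable lines selected with puromycin for 1 week: empty vector (n = 2), ACOT12 (n = 2) and an ACOT12 mutant (n = 1) whose altered residue is not named in the labels. It asked which genes change downstream of ACOT12 in hepatocellular carcinoma cells. The labels do not say whether the replicates were separate cultures or separately derived lines, so each p-value measures only the spread between these arrays, which may be technical. The mutant array did not enter the choice of members, has no replicate, and is given as its deposited intensity beside the other arrays, unless stated otherwise. It was dimmer than they were, with a median over all probes of 616 against 700 to 825, so a deposited mutant reading slightly under another array's is no difference.

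ACOT12 is a cytosolic acyl-CoA thioesterase of liver that splits acetyl-CoA into acetate and free coenzyme A. Acetyl-CoA is the building block of fatty acids and sterols, the fuel of the citric acid cycle and the acetyl donor for histones, so a thioesterase for it sits between lipid metabolism and chromatin. In liver cancer, loss of hepatocyte genes and the epithelial-mesenchymal transition, in which transcription factors of the SNAI, TWIST and ZEB families act, are linked to metastasis.

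The ACOT12 probe itself did not belong to the bright set. With empty vector it read 59.2 on replicate 1 and 18.02 on replicate 2, with ACOT12 4733 and 4859, and with the mutant 4030. Its readings follow the labels, but those with empty vector lie far under 800. It was 1 of 57 probes at or over 800 on both ACOT12 arrays and under 800 on both empty vector arrays, against 12 probes that crossed the other way. The dim end of the arrays moved with the groups, with 310 and 911 values below 0 on the empty vector arrays and 1 and 0 on the ACOT12 arrays, and its part in these crossings was not tested. CYP1A1, a xenobiotic-metabolising enzyme, was another of the 57, at 404 and 599 with empty vector and 1145 and 1301 with ACOT12, and CYP26A1, which breaks down retinoic acid, read 8.17 and 609 against 1026 and 1164. At the edge of the choice, the SAV1 probe was just inside with a lowest reading of 800.1, followed by PPP1R3F and CFAP44 at 801.5, while FEM1B, TRPM3 and TAS2R43 were just outside at 799.6. The set also held other probes of its own genes back: 1806 of the 9123 genes had 2077 further probes under the floor, of which 1119 read in the direction of the gene. Whatever the gene did, 1764 of these 2077 dim probes read higher with ACOT12 as deposited.

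Median intensities over all probes lay between 700 and 825 on the 4 arrays, and 48.9% to 51.5% of the probes with a symbol reached 800. Across bright genes the correlation of normalised log2 values was 0.9919 between the empty vector arrays and 0.9848 between the ACOT12 arrays, the lowest of all pairs. Between groups it was 0.994 for empty vector replicate 1 with ACOT12 replicate 1, the highest of all pairs, and 0.9879 to 0.9888 for the other pairs. The median absolute log2 difference was 0.113 between the empty vector arrays, 0.182 between the ACOT12 arrays and 0.0902 between the means of the groups. Means of 2 arrays vary less than single arrays, so the last value is not like the others. Between single arrays, the mean absolute difference was 0.156 within empty vector, 0.227 within ACOT12 and 0.129 to 0.200 across groups. Of the hepatocyte markers, ALB, AFP, KRT8 and KRT18 were bright, while TTR was under the floor on every array, SERPINA1 was under it on some, and the probes of APOA1 disagreed.

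No bright gene differed between ACOT12 and empty vector past the threshold. In limma's moderated test with Benjamini-Hochberg adjustment over 10010 genes, 0 had an adjusted p under 0.05 (0% of the genes tested), and the lowest adjusted p was 1.00. An unadjusted p under 0.05 was found for 233 genes (2.33%), of which 100 read higher with ACOT12 (0.999%) and 133 lower (1.33%). Of these, 232 were members, 99 higher and 133 lower. This split depends on the scaling, since the intensities as deposited gave 114 higher and 93 lower, and arrays centred on their medians gave 126 and 106. It moved more with single arrays: without empty vector replicate 1 it was 348 higher and 55 lower, without empty vector replicate 2 it was 55 and 33, without ACOT12 replicate 1 it was 445 and 507, and without ACOT12 replicate 2 it was 331 and 167. With 2 arrays a group, the smallest p of an exact permutation test is 0.333, so none was run on single genes.

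Differences among the members were small. In bulk RNA, fewer cells expressing a gene cannot be told apart from less of its RNA per cell. Their median log2 difference (ACOT12 minus empty vector, as throughout) was -0.01, with 5th and 95th percentiles of -0.24 and 0.29, and 8067 of 9123 members (88.4%) lay within 0.25 of 0. Of the members, 4333 read higher and 4790 lower, beside 47.9% higher and 52.1% lower among all bright genes. In 102 members the difference was at least 0.5 on the log2 scale, 67 of them higher and 35 lower, and in 1, SNX12, it reached 1. The arrays of the 2 groups did not overlap in 2692 members (29.5%), 1131 higher and 1561 lower, against 28.1% of all bright genes, 11.7% higher and 16.4% lower. By random order alone, 2 groups of 2 arrays are apart with a probability of 0.333. The plot of difference against brightness shows the widest spread among dim genes.

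**Figure D1:**
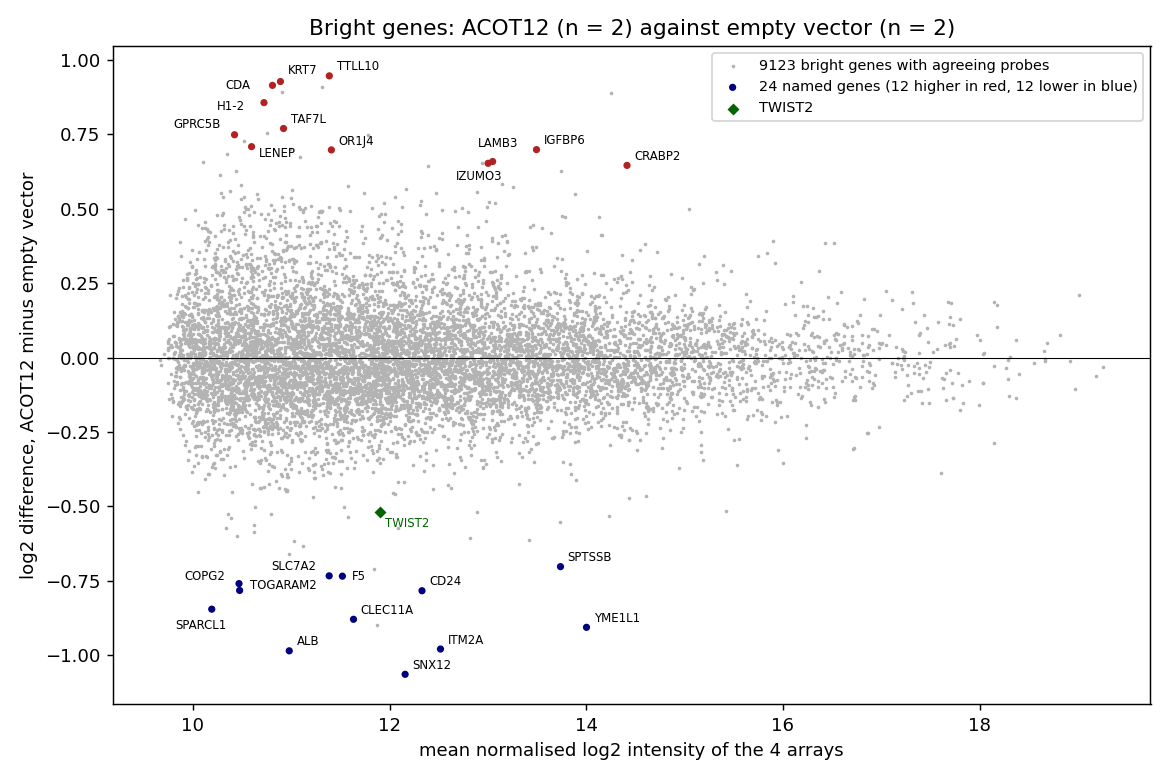
Log2 difference of ACOT12 minus empty vector (vertical axis) against mean normalised log2 intensity of the 4 arrays (horizontal axis) for the 9123 bright genes with agreeing probes. Labelled points are the 12 highest and 12 lowest genes among those with non-overlapping arrays and an unadjusted p under 0.05, and TWIST2; 8067 of the genes lie within 0.25 of 0.

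The genes named next are the 12 with the highest and the 12 with the lowest differences among members whose arrays did not overlap and whose unadjusted p was under 0.05. None was called at an adjusted p under 0.05, each having an adjusted p of 1 in limma. Values are deposited intensities on empty vector replicates 1 and 2, then on ACOT12 replicates 1 and 2, then on the mutant array, and differences carry their standard error (n = 2 arrays a group).

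The higher genes included a keratin, a laminin chain, a secreted binding protein and a receptor. KRT7, a keratin of bile duct and other simple epithelia, read 1453 and 1251 with empty vector, 2078 and 3352 with ACOT12 and 3216 with the mutant, a log2 difference of 0.93 ± 0.22. LAMB3, the beta chain of laminin-332, had 2 bright probes: the first read 7646 and 6409, then 14223 and 9518, then 14315, and the second 6723 and 6221, then 10441 and 8904, then 13076. Both LAMB3 probes read higher on each ACOT12 array than on either empty vector array, and the gene's difference was 0.66 ± 0.17. IGFBP6, a secreted binder of insulin-like growth factor II, read 9387 and 8798 against 13360 and 15970, with 14639 in the mutant, a difference of 0.70 ± 0.14. GPRC5B, an orphan G protein-coupled receptor, read 1032 and 1044 against 1569 and 2094, with 1707 in the mutant, a difference of 0.75 ± 0.16. In all 4 genes the mutant array lay above both empty vector arrays.

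CRABP2, which carries retinoic acid to its nuclear receptor, was read by 2 bright probes. The first read 24132 and 19367 with empty vector, 30461 and 35441 with ACOT12 and 37685 with the mutant, and the second 15791 and 12788, then 18680 and 26841, then 26412, giving 0.65 ± 0.18. CDA, the cytidine deaminase of pyrimidine salvage, read 1327 and 1230 against 2650 and 2358, with 3247 in the mutant. Its difference was 0.92 ± 0.13, and its replicates lay close together in both groups. H1-2, a linker histone, read 1011 and 1519 against 1977 and 2661, with 1780 in the mutant, a difference of 0.86 ± 0.27 with empty vector arrays that themselves differed widely.

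The remaining higher genes are known chiefly from other tissues. TTLL10, of the tubulin tyrosine ligase-like family that modifies microtubules, had the highest difference, 0.95 ± 0.16, from 1776 and 2031 to 3341 and 4151, with 1517 in the mutant. A second TTLL10 probe just under the floor read 0.19 higher, and with the floor at 400, which admits it, the gene's difference was 0.51. OR1J4, an olfactory receptor, read 2066 and 2143 against 3602 and 3368, with 2224 in the mutant, a difference of 0.70 ± 0.13. As deposited, the mutant array read under both empty vector arrays in TTLL10 and above both in OR1J4. On the normalised log2 scale it lay at 10.771 against 10.768 and 11.058 for TTLL10. For OR1J4 it lay at 11.26 against 10.98 and 11.13. TAF7L, a testis paralogue of a TFIID subunit, had a difference of 0.77 ± 0.29, LENEP, a lens epithelial protein, 0.71 ± 0.20 (from 1083 and 1300 to 2277 and 1791), and IZUMO3, of the sperm IZUMO family, 0.65 ± 0.25. TAF7L read 1129 and 1898 against 2807 and 2359, and IZUMO3 5448 and 7874 against 12136 and 8663, so in both empty vector replicate 2 lay nearer to the lower ACOT12 array than to empty vector replicate 1.

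**Figure D2:**
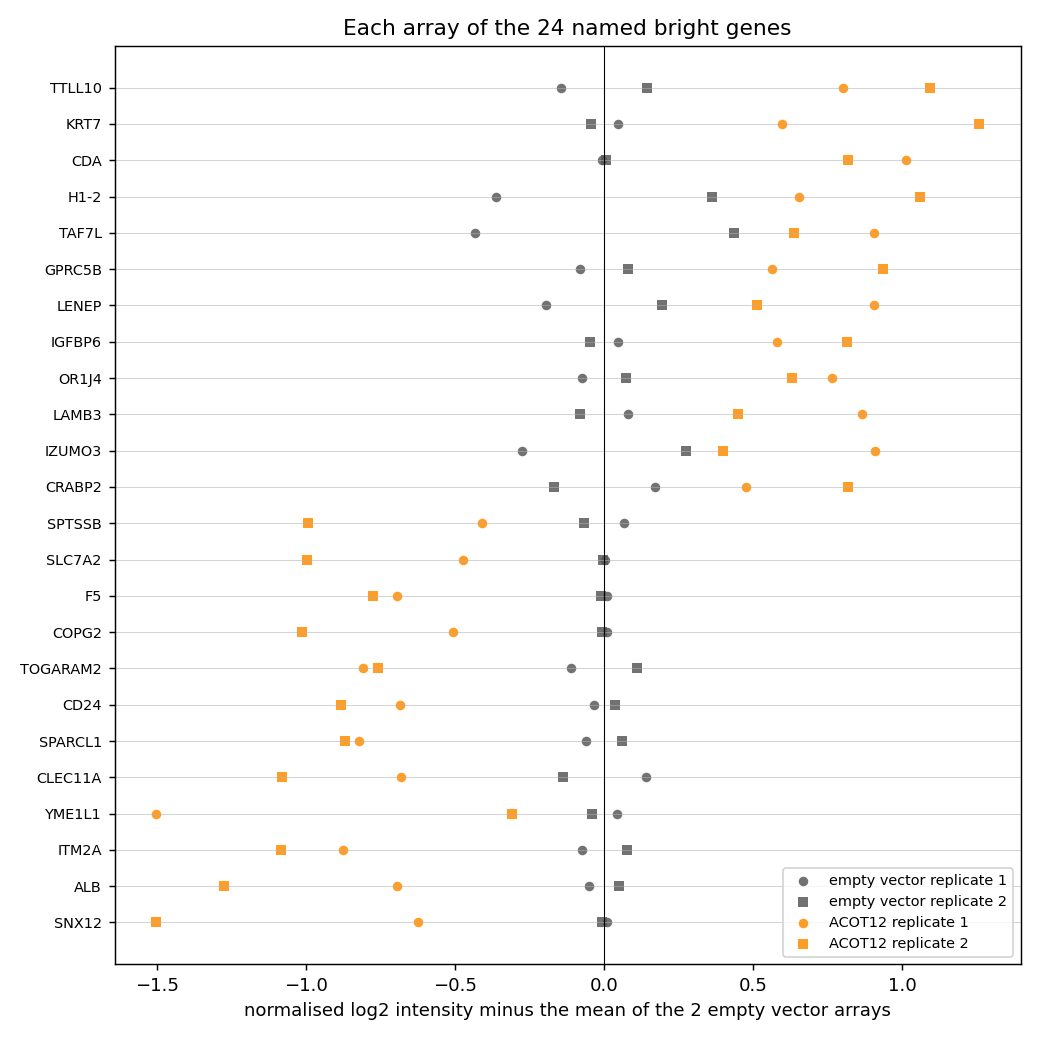
Normalised log2 intensity of the 24 named genes on each of the 4 arrays, as the distance from the mean of the 2 empty vector arrays (horizontal axis), with grey points for empty vector, orange for ACOT12, circles for replicate 1 and squares for replicate 2. No gene's groups overlap, as the naming required, and the ACOT12 replicates of SNX12 and YME1L1 lie farthest apart.

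Among the lower genes were liver products. ALB, serum albumin, read 2771 and 2843 with empty vector, 1755 and 1209 with ACOT12 and 853 with the mutant, a log2 difference of -0.99 ± 0.21. F5, coagulation factor V, read 3867 and 3698 against 2348 and 2278, with 1873 in the mutant, a difference of -0.74 ± 0.12. A second F5 probe under the floor read 0.31 log2 higher with ACOT12, against the direction of the bright probe. Differences of dim probes are of deposited intensities throughout, and 1764 of the 2077 dim probes read higher. SLC7A2, a transporter of arginine and other cationic amino acids, read 3497 and 3374 against 2497 and 1798, with 2020 in the mutant, a difference of -0.73 ± 0.19, and its dim probe read 0.16 higher. With the floor at 400, which admits that probe, the difference of SLC7A2 was -0.35.

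Surface and secreted proteins formed the next group of lower genes. ITM2A, a type II membrane protein, had the lowest unadjusted p of all bright genes, 0.000369: it read 7853 and 8699 with empty vector, 4471 and 3922 with ACOT12 and 2774 with the mutant, a difference of -0.98 ± 0.14. CD24, a surface marker of hepatic progenitors and of tumour-initiating cells, read 6614 and 6886 against 4202 and 3702, with 2095 in the mutant, a difference of -0.78 ± 0.13. CLEC11A, a secreted growth factor for blood progenitors, read 4803 and 3830 against 2708 and 2109, with 732 in the mutant, and its difference was -0.88 ± 0.18. SPARCL1, a matricellular protein, read 1537 and 1541 against 884 and 870, with 464 in the mutant, a difference of -0.85 ± 0.12. In these 4 genes the ACOT12 replicates lay closer to each other than to either empty vector array, and as deposited the mutant array lay below every other array. On the normalised log2 scale it still did in ITM2A, CD24 and CLEC11A. In SPARCL1 it then lay at 9.745, the same as ACOT12 replicate 2.

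The other lower genes act inside the cell. SPTSSB, a small subunit of the serine palmitoyltransferase that starts sphingolipid synthesis, had 2 bright probes that read 14032 and 12709, then 10163 and 6918, then 4452, and 23620 and 22511, then 16467 and 11313, then 8101. Its difference was -0.70 ± 0.21. TOGARAM2, a protein with microtubule-binding TOG domains, read 1759 and 1912 against 1075 and 1139, with 1996 in the mutant, a difference of -0.78 ± 0.13, and here the mutant array lay above both empty vector arrays. COPG2, a coatomer subunit of Golgi vesicles, read 1887 and 1732 against 1314 and 933, with 1271 in the mutant, a difference of -0.76 ± 0.19. SNX12, a sorting nexin of endosomes, had the lowest difference, -1.07 ± 0.28, from 6664 and 6520 to 4285 and 2382, and YME1L1, a protease of the inner mitochondrial membrane, -0.91 ± 0.37, from 23084 and 22246 to 7867 and 18241. Of the 33 genes named for the size of their differences, here and among the multi-probe genes below, 12 moved toward 0 by over 1.5 times when 1 array was left out, and none changed sign. Without ACOT12 replicate 2 the difference was -0.62 for SNX12, 0.60 for KRT7, -0.51 for COPG2, -0.48 for SLC7A2, -0.42 for SPTSSB, 0.24 for H2BC5, -0.26 for VSIG1 and -0.21 for TRIM2. Without ACOT12 replicate 1 it was -0.31 for YME1L1 and 0.40 for IZUMO3, and without empty vector replicate 1 it was 0.50 for H1-2, 0.38 for IZUMO3 and 0.34 for TAF7L. Moves away from 0 by over 1.5 times were those of YME1L1, to -1.51 without ACOT12 replicate 2, and TAF7L, to 1.19 without empty vector replicate 2.

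Genes read by more than 1 bright probe gave a check on single probes. Of 2118 such genes, 1232 had agreeing probes, 501 higher and 731 lower, and 886 did not. Agreement was found in 1171 of 1918 genes with 2 bright probes and in 61 of 200 genes with 3 or more. Some agreement arises even where signs are random, and less of it with more probes. Grouped by the largest probe difference, with both kinds of gene pooled, agreement did not climb steadily. It was 54.9% under 0.1, 58.8% from 0.1 to 0.25, 63% from 0.25 to 0.5, and 55.6% at 0.5 and over, where there were 27 genes. Across the 1918 genes with 2 probes, the 2 differences correlated with r = 0.268, a description over genes that share the same 4 arrays. SERINC5, a membrane protein that limits retrovirus infectivity, had the widest disagreement described here: 1 probe read 1463 and 1841 against 4472 and 5236, a difference of 1.54, and the other 5071 and 5620 against 4683 and 4787, a difference of -0.17. No transcript was assigned to either probe.

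**Figure D3:**
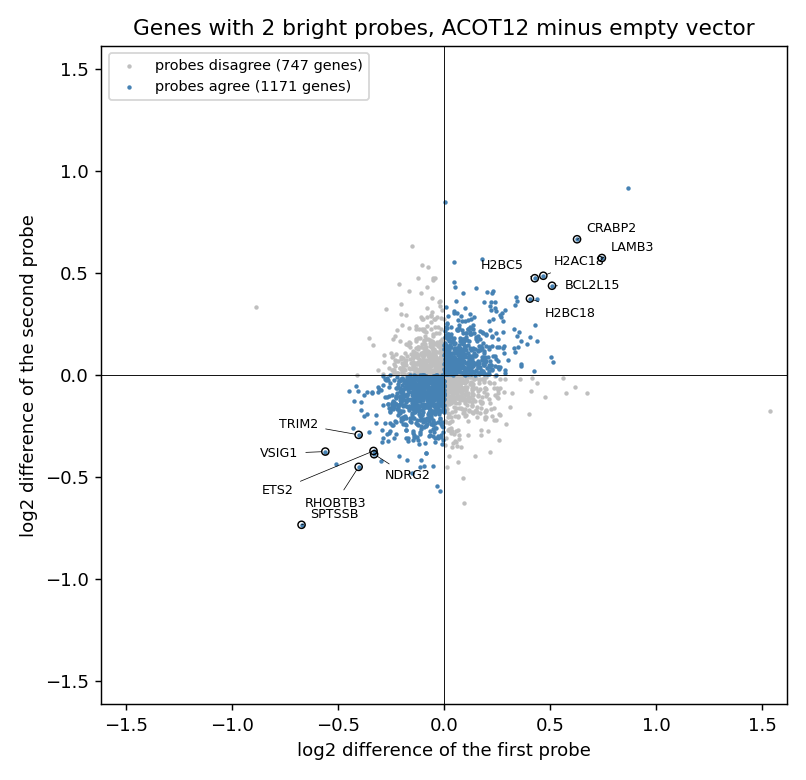
Log2 difference of ACOT12 minus empty vector in the first (horizontal axis) and second (vertical axis) bright probe of the 1918 genes with 2, in blue where they agree (1171 genes) and grey where they do not. Circled genes are the 12 agreeing genes named for the highest and lowest smaller probe difference; the uncircled point near 0.9 on both axes is CST1.

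Among agreeing multi-probe genes with non-overlapping groups and an unadjusted p under 0.05, ranked by the smaller of their probe differences, the 6 highest were CRABP2, LAMB3, H2AC18, BCL2L15, H2BC5 and H2BC18, and the 6 lowest SPTSSB, RHOBTB3, VSIG1, ETS2, NDRG2 and TRIM2. BCL2L15, of the BCL2 family of cell death regulators, read 1471 and 1386 against 2389 and 1880 on 1 probe and 3380 and 2643 against 4431 and 3818 on the other, a difference of 0.47 ± 0.15. VSIG1, an epithelial adhesion molecule, had -0.47 ± 0.17, NDRG2, a growth-restraining protein, -0.36 ± 0.13, and TRIM2, a ubiquitin ligase, -0.35 ± 0.14. ETS2, an ETS transcription factor, read 19622 and 19264 against 16456 and 13983, and 8608 and 8532 against 6998 and 6190, a difference of -0.35 ± 0.13. None of the 12 was called. CST1, a secreted cysteine protease inhibitor, had probe differences of 0.87 and 0.92 but an unadjusted p of 0.0512 (adjusted p 1 in limma), with its 2 empty vector arrays 13.33 and 14.29 and its ACOT12 arrays 14.34 and 15.06 on the normalised log2 scale.

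Of the transcription factors of the epithelial-mesenchymal transition, TWIST2 stood lowest. TWIST2, a basic helix-loop-helix repressor, read 4483 and 4630 with empty vector, 3369 and 3067 with ACOT12 and 4321 with the mutant, and its log2 difference was -0.52 ± 0.13 (unadjusted p 0.00646, adjusted p 1 in limma). Both ACOT12 arrays lay below the empty vector arrays. On the normalised log2 scale the mutant array, at 12.16, lay between the empty vector arrays, at 12.12 and 12.20. SOX9, a progenitor factor, read 8297 and 9788 against 6576 and 7563, with 5468 in the mutant, a difference of -0.35 ± 0.14. SNAI1 had a difference of 0.08 ± 0.14 with overlapping groups, the probes of ZEB1 disagreed at 0.11 and -0.12, and SNAI2, TWIST1 and ZEB2 were not over the floor. In all, 5 of 6 bright factors had agreeing probes, 1 higher and 4 lower, with 0 called and a median of -0.156, which was -0.28 without ACOT12 replicate 2 and -0.10 without empty vector replicate 2.

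Of the effector genes of that transition, the fixed genes VIM, CDH2 and FN1 differed by little. VIM, the mesenchymal filament protein, read 2731 and 2284 against 2475 and 2644, a difference of 0.00 ± 0.13. CDH2, N-cadherin, read 14745 and 16020 against 17207 and 15619, a difference of 0.12 ± 0.13, and in both genes the groups overlapped. FN1, fibronectin, had -0.08 ± 0.11 over 2 probes, with groups that did not overlap. CDH1 was under the floor on every array and EPCAM on empty vector replicate 2, at 673, while its other arrays read 1042, 1036 and 1163. Of 19 bright epithelial markers with agreeing probes 11 read higher and 8 lower (median 0.06), and of 18 mesenchymal markers 11 higher and 7 lower (median 0.03), with 0 called in either list. The groups did not overlap in 5 of the epithelial markers, KRT7 among them, and in 3 of the mesenchymal markers, beside 28.1% of all bright genes. Both medians turned below 0 without 1 array, the epithelial to -0.02 without empty vector replicate 2 and the mesenchymal to -0.01 without ACOT12 replicate 2. The mesenchymal markers with the smallest p all read higher, beside the 7 lower of the list. They were AXL (0.55 ± 0.41), COL1A1 (0.38 ± 0.21), LOXL2 (0.31 ± 0.14) and ITGA5 (0.245 ± 0.16). Groups overlapped in AXL and ITGA5 and were apart in COL1A1 and LOXL2. JUP, the junction protein plakoglobin, read 13601 and 12399 against 15784 and 15354, a difference of 0.28 ± 0.12. Lower epithelial markers included KRT8, at -0.24 ± 0.16 with overlapping groups, and ESRP2, at -0.18 ± 0.13 with groups apart.

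Genes around the substrate of ACOT12 differed by little. The list of enzymes that make acetyl-CoA or use acetate had 12 members, 2 higher and 10 lower, with a median of -0.095, beside -0.01 for all members, and 0 were called. Its median ranged from -0.124 to -0.053 when each array was left out, the latter without ACOT12 replicate 2. ACAT1, a mitochondrial thiolase, read 6563 and 6140 against 5513 and 5605 and, on a second probe, 14516 and 13343 against 12186 and 13323, a difference of -0.15 ± 0.12. DLAT, the acetyltransferase of pyruvate dehydrogenase, had -0.10 ± 0.11, ACACA, which commits acetyl-CoA to fatty acids, -0.12 ± 0.16, and ACSS2, which makes acetyl-CoA from acetate, -0.12 ± 0.16. SLC25A1, the mitochondrial citrate carrier, was among the 2 higher, at 0.19 ± 0.18, and the 2 probes of ACLY, which splits citrate to acetyl-CoA, disagreed at -0.06 and 0.06. Among the 7 other acyl-CoA thioesterases, 1 read higher, ACOT13 at 0.12 ± 0.12, and 6 lower, from ACOT11 at -0.22 ± 0.13. A second ACOT11 probe under the floor read 0.33 log2 higher with ACOT12, against the direction of the bright probe.

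Lipid genes downstream of acetyl-CoA were likewise near 0. Fatty acid synthesis and desaturation genes numbered 5 higher and 12 lower of 17 (median -0.08), and FASN, the synthase itself, read 78727 and 91659 against 60453 and 80874, a difference of -0.27 ± 0.17 with overlapping arrays. The list's median was -0.007 without empty vector replicate 2, -0.05 without ACOT12 replicate 1 and -0.145 without empty vector replicate 1. Fatty acid oxidation and ketogenesis genes were 5 higher and 15 lower of 20 (median -0.07, and -0.03 without empty vector replicate 2 or -0.04 without ACOT12 replicate 2). DECR1, an auxiliary enzyme of unsaturated fatty acid oxidation, read 44436 and 53038 against 39344 and 42156, a difference of -0.24 ± 0.13. Cholesterol synthesis and uptake genes were 10 higher and 7 lower of 17 (median 0.05), and the median was -0.04 without empty vector replicate 1 and 0.01 without ACOT12 replicate 2. No gene of these lists was called.

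Histone genes of the replication-dependent class, which are expressed in S phase and whose main transcripts lack a poly(A) tail, had the highest median of the lists. Of 52 such genes on the array 12 were bright, all with agreeing probes, 11 higher and 1 lower, with a median of 0.35. Of the 12, 9 had groups that did not overlap, all higher, and 5 had an unadjusted p under 0.05, with 0 called. Among all bright genes 28.1% had groups that did not overlap and 2.33% an unadjusted p under 0.05. By array, the median distance of these genes from their own mean was -0.17 and -0.12 with empty vector and 0.09 and 0.24 with ACOT12, and the list's difference ranged from 0.27 to 0.41 when each array was left out. H2BC14 read 1698 and 1719 against 2348 and 2679, with 3467 in the mutant, a difference of 0.52 ± 0.13. H2AC18 read 11396 and 13643 against 15653 and 18645 on 1 probe and 10460 and 11831 against 13578 and 17733 on the other, a difference of 0.48 ± 0.15, and its mutant readings were 19637 and 17309. H2BC5 had a difference of 0.45 ± 0.17 and H2BC18 of 0.39 ± 0.13, each over 2 probes, while H2BC17 had -0.18 ± 0.17. The 2 H2BC18 probes were at odds in the mutant, at 3423 and 521. Histone genes within a family, such as the H2B genes, are near-identical in sequence, so their probes may read each other's transcripts. That was not tested, and these 12 are not taken as independent. DNA replication genes, active in the same phase, were 8 higher and 22 lower of 30 (median -0.06, and -0.09 without empty vector replicate 1 or -0.03 without ACOT12 replicate 2). RPA1, of the single-strand binding complex, had -0.32 ± 0.12, and its dim probe read 0.24 higher. Cell cycle and mitosis genes were 18 higher and 27 lower of 45 (median -0.02, and -0.08 without ACOT12 replicate 1).

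The promoters of 3 histone members that read higher are shown with 2 boxes common in promoters of this family. Each is the 250 bases before the gene's start in RefSeq (GRCh38.p14), on the gene's strand, with capitals for the letters CCAAT and TATAAA or their reverse complements ATTGG and TTTATA.
H1-2, chr6:26056471-26056720, minus strand: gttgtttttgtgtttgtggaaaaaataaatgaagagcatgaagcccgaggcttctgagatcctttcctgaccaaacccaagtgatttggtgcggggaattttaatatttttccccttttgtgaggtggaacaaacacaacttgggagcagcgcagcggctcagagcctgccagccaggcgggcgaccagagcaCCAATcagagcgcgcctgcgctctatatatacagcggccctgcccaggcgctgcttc
H2AC18, chr1:149842751-149843000, minus strand: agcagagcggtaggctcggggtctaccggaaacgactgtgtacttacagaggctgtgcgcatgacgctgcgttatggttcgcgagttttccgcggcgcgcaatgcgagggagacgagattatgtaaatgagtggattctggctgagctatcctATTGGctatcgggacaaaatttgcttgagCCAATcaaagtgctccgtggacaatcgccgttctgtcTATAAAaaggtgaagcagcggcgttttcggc
H2BC14, chr6:27814772-27815021, plus strand: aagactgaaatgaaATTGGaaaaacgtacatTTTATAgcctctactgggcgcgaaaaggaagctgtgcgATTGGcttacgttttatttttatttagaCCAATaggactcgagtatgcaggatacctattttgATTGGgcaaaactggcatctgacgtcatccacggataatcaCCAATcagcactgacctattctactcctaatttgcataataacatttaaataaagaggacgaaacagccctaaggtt
A CCAAT was found in 10 of the 11 histone members that had a listed promoter and a TATAAA in 7. In H2BC14 and H2BC17 the TATAAA lay only on the opposite strand, 219 and 214 bases before the start. A gene was counted if any of its listed starts had a match, whereas the shares that follow are per promoter. On either strand of the same window, 32% of 35116 promoters held CCAAT and 10.7% TATAAA, and among 10808 promoters of members the shares were 33.4% and 6.61%. Of the 3 shown, H2AC18 held both boxes near its start, H1-2 held a CCAAT 57 bases before its start and no TATAAA, and H2BC14 held its TATAAA letters on the opposite strand 219 bases before its start. The letters are a description of the sequence only.

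Interferon-response genes, which cells switch on against viruses, were 15 higher and 5 lower of 20 members, with 0 called. The median difference was 0.125, but it was 0.005 without ACOT12 replicate 2 and 0.28 without ACOT12 replicate 1, so it rested on ACOT12 replicate 2. By array the median distances were -0.10 and -0.03 with empty vector and -0.06 and 0.17 with ACOT12. Groups did not overlap in 8, 6 higher and 2 lower, and 6 had an unadjusted p under 0.05, 5 of them higher, beside 28.1% and 2.33% of all bright genes. IFIT1, which binds viral RNA, read 923 and 1108 against 1457 and 1461, with 1165 in the mutant, a difference of 0.48 ± 0.16. PARP9, an ADP-ribosyltransferase partner, read 854 and 874 against 1386 and 1155, with 935 in the mutant, a difference of 0.50 ± 0.15. OASL, of the oligoadenylate synthetase family, read 4525 and 4340 against 6326 and 5583, with 4293 in the mutant, a difference of 0.42 ± 0.13. In these 3 genes both ACOT12 arrays lay above both empty vector arrays. IFITM2, a membrane protein that hinders virus entry, went the other way, from 4623 and 4974 to 3681 and 3940, a difference of -0.34 ± 0.12. HLA class I antigen presentation genes were 10 higher and 3 lower of 13 (median 0.07), with no gene's groups apart, and the median turned to -0.13 without ACOT12 replicate 2 and was 0.21 without ACOT12 replicate 1.

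The promoters of IFIT1 and PARP9 are shown for the interferon-stimulated response element through which such genes are known to be switched on, searched on both strands as GAAA, any 2 bases and GAAA, and capitalised here in its reverse complement. They are the 250 bases before a RefSeq start (GRCh38.p14), for PARP9 the start with a match of the 2 listed.
IFIT1, chr10:89392373-89392622, plus strand: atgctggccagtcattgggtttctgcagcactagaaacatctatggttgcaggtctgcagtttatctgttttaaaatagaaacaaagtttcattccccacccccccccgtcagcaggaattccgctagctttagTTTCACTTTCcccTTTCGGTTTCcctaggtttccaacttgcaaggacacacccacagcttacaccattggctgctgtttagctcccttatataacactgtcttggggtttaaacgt
PARP9, chr3:122564301-122564550, minus strand: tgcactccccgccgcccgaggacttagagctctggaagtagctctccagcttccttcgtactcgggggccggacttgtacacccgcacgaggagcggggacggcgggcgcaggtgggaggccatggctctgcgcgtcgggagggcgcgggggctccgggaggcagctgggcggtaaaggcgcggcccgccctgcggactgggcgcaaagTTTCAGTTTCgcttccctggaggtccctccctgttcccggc
The 2 matches of IFIT1 begin 116 and 103 bases before its start, and that of PARP9 begins 41 bases before. A match was found in 11 of the 16 interferon members with a listed promoter, counted per gene over any of its starts. Counted per promoter, it was found in 3.02% of 35116 promoters and 2.35% of 10808 promoters of members.

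Hepatocyte genes were split. Plasma protein and apolipoprotein genes were 8 higher and 10 lower of 18 (median -0.02, and -0.19 without empty vector replicate 1 or 0.07 without empty vector replicate 2), with 0 called and 3 with an unadjusted p under 0.05, all lower: ALB, F5 and ITIH2. ITIH2, a hyaluronan-binding plasma protein, read 17658 and 15597 against 11729 and 10720, with 13747 in the mutant, a difference of -0.55 ± 0.14. APOE, a lipoprotein component, read 1809 and 2244 against 2488 and 2929, a difference of 0.38 ± 0.17. Hepatocyte metabolism genes and transcription factors were 8 higher and 11 lower of 19 (median -0.09, and -0.18 without empty vector replicate 1, -0.17 without ACOT12 replicate 2 or -0.06 without empty vector replicate 2). Of these, 4 had an unadjusted p under 0.05, all lower, among them the alcohol dehydrogenases. For both hepatocyte lists, the share of all bright genes at such a p was 2.33%, with 0.999% higher and 1.33% lower. ADH1A read 2613 and 2875 against 1908 and 1724, with 987 in the mutant, a difference of -0.64 ± 0.14. ADH1C read 20980 and 25910 against 16705 and 14892, with 8304 in the mutant, and ADH6 read 1580 and 1519 against 1257 and 989, with 635 in the mutant. Their differences were -0.53 ± 0.15 and -0.53 ± 0.16, and ADH1A and ADH1C are close paralogues whose probes may share targets. The dim probe of ADH6 read 0.31 lower. GATA6, an endoderm factor, read 2366 and 2399 against 1788 and 2122, a difference of -0.33 ± 0.13.

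More progenitor and tumour markers read lower than higher. Hepatic progenitor and cancer stem markers were 3 higher and 8 lower of 11 (median -0.08, and -0.15 without ACOT12 replicate 1 or -0.05 without ACOT12 replicate 2), with CD24, KRT7 and SOX9 as given above and ANPEP, the aminopeptidase CD13, at 0.58 ± 0.14 from 2682 and 2260 to 3456 and 4049. Clinical liver cancer markers were 2 higher and 11 lower of 13, with 0 called and a median of -0.12 that ranged from -0.16 to -0.09 when each array was left out. AFP, alpha-fetoprotein, read 3607 and 3764 against 3480 and 3380, a difference of -0.12 ± 0.12. GLUL, glutamine synthetase, had -0.21 ± 0.14, and SPINK1, a secreted protease inhibitor, read 1516 and 1452 against 1717 and 2506, a difference of 0.44 ± 0.19.

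TGF-beta and BMP targets were 7 higher and 13 lower of 20, with 0 called and a median of -0.10 that was -0.001 without ACOT12 replicate 1 and was -0.18 without empty vector replicate 1. ID1, a helix-loop-helix inhibitor that BMP signals induce, read 225112 and 238209 against 169408 and 180343, with 175984 in the mutant, a difference of -0.39 ± 0.12. ID3, its relative, read 58849 and 50600 against 40121 and 43138, with 34291 in the mutant, a difference of -0.36 ± 0.13. CDKN2B, a cyclin-dependent kinase inhibitor, read 3162 and 3043 against 2449 and 2634, a difference of -0.32 ± 0.12, and its dim probe read 0.15 lower. For all 3 the groups were apart and the mutant array was below both empty vector arrays. SMURF1 went the other way, at 0.24 ± 0.13 with groups apart. On the normalised log2 scale its mutant array lay at 12.59, above both empty vector arrays at 12.30 and 12.16. Groups did not overlap in 9 of the 20 members, 1 higher and 8 lower. Among all bright genes they did not in 28.1%, 11.7% higher and 16.4% lower.

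In the aryl hydrocarbon receptor axis, 3 of 7 members read higher and 4 lower (median -0.07, and -0.03 without ACOT12 replicate 2). CYP1B1, an enzyme that this receptor induces, read 7236 and 7486 against 11085 and 10979, with 12200 in the mutant, a difference of 0.59 ± 0.12. TIPARP, another target, read 3466 and 3666 against 4590 and 3969, a difference of 0.25 ± 0.14, and AHR, the receptor, had -0.21 ± 0.15. ALDH3A1, a further target, read 321552 and 322218 against 305406 and 217117, with 266135 in the mutant, a difference of -0.29 ± 0.19 with groups that overlapped once normalised. The other lists are set out in the plot of lists. Tumour-secreted chemokines and cytokines were 9 higher and 6 lower of 15 (median 0.08, and 0.03 without ACOT12 replicate 2 or 0.13 without ACOT12 replicate 1), led by IL32, a cytokine, whose 3 bright probes differed by 0.72, 0.82 and 0.70. IL32 was far higher on ACOT12 replicate 2 than on replicate 1: its first probe read 2823 and 3131 against 3652 and 6726, with 7517 in the mutant. Groups did not overlap in 8 of the 15, 6 higher and 2 lower, beside 28.1% of all bright genes. The 2 lower were CXCL1, at -0.37 ± 0.14, and CCL20, at -0.27 ± 0.12. Only CXCL1 had an unadjusted p under 0.05 in limma, as had 2.33% of all bright genes. A dim CXCL1 probe read 0.28 higher. S100 proteins, calcium binders, were 6 higher and 3 lower of 9 (median 0.15, and 0.05 without empty vector replicate 2 or without ACOT12 replicate 2). Large housekeeping lists lay near 0, with medians of 0.02 for 47 cytosolic ribosomal proteins, 0.03 for 62 mitochondrial ribosomal proteins, 0.01 for 56 respiratory chain subunits and 0.035 for 29 proteasome subunits. All 4 medians turned to between -0.014 and -0.002 when the arrays were centred on their medians.

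Markers of other cell types were read beside these groups, since a pure line should hold none of those cells. Bright immune markers were 7 higher and 1 lower of 8 (median 0.24, and 0.07 without empty vector replicate 2), fibroblast and stellate markers 3 and 1 of 4 (median 0.17, and 0.05 or 0.03 without empty vector replicate 1 or 2), endothelial markers 2 and 2 of 4 (median 0.07), and erythroid markers 2 and 1 of 3 (median 0.16, and -0.16 without ACOT12 replicate 1). The summed intensity of all 24 immune probes was 41139 and 33908 with empty vector and 41383 and 46777 with ACOT12. That of 23 endothelial probes was 25548 and 22904 against 29337 and 34066, of 20 fibroblast probes 13156 and 10799 against 14436 and 13873, and of 14 erythroid probes 7601 and 5369 against 8047 and 7302. Among the 4 arrays each sum was lowest on empty vector replicate 2. The defining leukocyte marker PTPRC read 42.8 to 116 over its 2 probes and the 4 arrays, and the fibroblast marker DCN 42.8 to 146, so neither was at 0 and both were far under the floor. CD3D, a T cell marker, read at most 61.7 on 1 probe and 8480 to 10915 on the other. Their part in the interferon and histone readings was not tested.

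Arrays also differed with brightness before scaling. In 10 groups of 1001 bright genes ordered by brightness, the dimmest had mean intensities of 808 to 1311. There the deposited medians of ACOT12 replicates 1 and 2 lay 0.02 and 0.08 log2 above the empty vector mean, and in the brightest group they lay at -0.06 and -0.02. In the dimmest group empty vector replicate 1 itself lay 0.08 above replicate 2. After quantile normalisation the medians of both ACOT12 arrays lay between -0.02 and 0.01 in every group, as the plot by brightness shows.

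**Figure D4:**
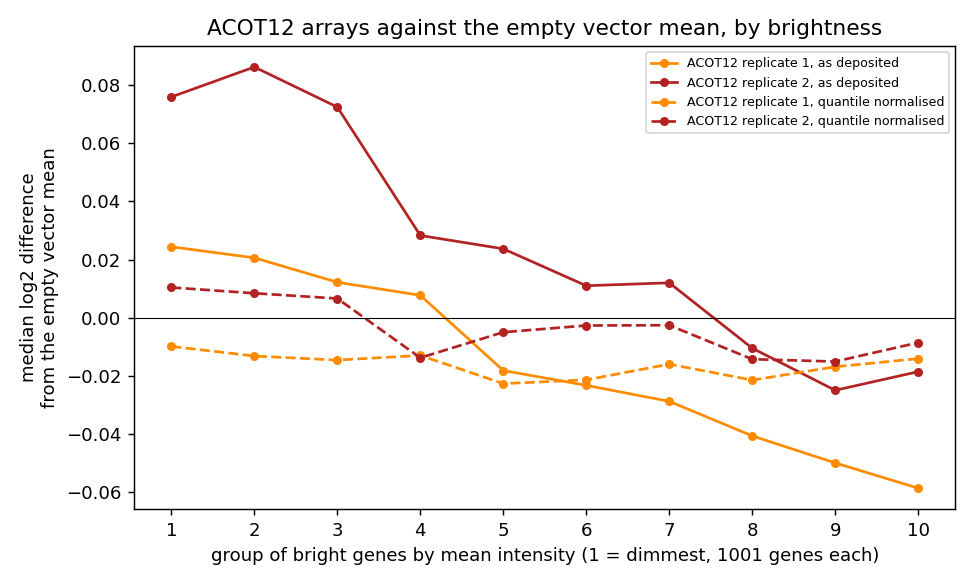
Median log2 difference of each ACOT12 array from the mean of the empty vector arrays (vertical axis) in 10 groups of 1001 bright genes ordered by mean intensity (horizontal axis, 1 the dimmest). Solid lines are deposited intensities, which slope from 0.08 to -0.02 for replicate 2, and dashed lines are quantile normalised values, which stay near 0.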

How the data were processed

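RNA of 5 MHCC97H samples, isolated with Trizol per the labels' protocols, was hybridised to 1-colour arrays. What the authors did between scanning and the deposited table (background, scaling) is not given in the sources used. Its values are linear intensities, judged from the deposited numbers, with some below 0 on 3 arrays and no detection flags. The few arrays limit the precision.

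Symbols came from the platform annotation: of 28264 probes, 25893 had 1, 0 had several and 2371 had none. All 25893 were found by gene identifier in RefSeq. The array names no genome build, so genes have no coordinates here apart from promoters.

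Probes at 800 or more on all 4 arrays were taken from deposited intensities to log2 with no offset and quantile normalised, and a gene's value was the mean of its kept probes. limma 3.58.1 (lmFit, eBayes without trend; R 4.3.3) was fitted to the ACOT12 and empty vector arrays without covariates (2 residual and 3.92 prior degrees of freedom). Tests were two-sided, with Benjamini-Hochberg adjustment over 10010 genes and a threshold of 0.05. The steps were tested on simulated data.

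Named genes were, among agreeing members with non-overlapping groups, all with adjusted p under 0.05, the 12 highest and 12 lowest at an unadjusted p under 0.05, and the 6 highest and 6 lowest multi-probe genes by smallest probe difference. Up to 4 agreeing genes a list were added by p, whether or not their groups overlapped. Fixed genes of the transition were added under neither condition. Other genes, given as disagreeing, dim or off these rules, were chosen after their values were seen. Members and lists were chosen with earlier results of these data known. Alternatives were other floors, scalings, offsets, probe summaries and variance models, the mutant array as a group of its own, a replicate block, and leaving out each array.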

Additional observations from a re-analysis of the deposited data

Results flagged for a closer look

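The ACOT12 probe, which is outside the bright genes, gave a signal in data that the comparison does not use. It averaged 4796 over the ACOT12 arrays and read 4030 on the mutant array, against 59.2 and 18.02 on the empty vector arrays.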

How the results depend on the processing

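The count of 0 genes at an adjusted p under 0.05 held in all alternatives but the floor set on the mean of the 4 arrays, where 1 gene passed: ACOT12 itself, at an adjusted p of 3.94e-05 in limma, which only that floor admits. The count of 233 genes at an unadjusted p under 0.05 lay between 167 and 267 with other floors, scalings, offsets and variance models, the brightest probe per gene and the mutant array added, and 271 of 12351 probes passed when each was tested on its own. With the replicate number as a block it was 471 (255 higher, 216 lower), with 0 called and a lowest adjusted p of 0.326. Deviations of same-numbered arrays correlated with r = 0.289 across genes; 2 pairs sharing only a number do not establish a pairing. Leaving out 1 array gave 88 to 952 genes: 403 without empty vector replicate 1, 88 without empty vector replicate 2, 952 without ACOT12 replicate 1 and 498 without ACOT12 replicate 2, where the lone array is assumed to vary like the other group, and 72, 49, 150 and 115 of them were among the 233. All of the 24 named genes kept their sign wherever they had a value. Of 3343 alternative values of 199 named genes, 102 moved by more than the spread between replicates and 51, in 31 genes, changed sign; of 747 list medians 67 moved and 48, in 23 lists, changed sign. The cause was not tested. Dim genes could not be assessed, because the floor leaves out 13542 probes.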
